A study of Homo sapiens with 9 samples.

Results

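The genes described here encode the proteins of the cytosolic ribosome. They were taken from the deposited count table by name: protein-coding genes on an autosome or the X chromosome in GENCODE release 29 whose symbol is RPL or RPS followed by a number, with the A, X and L forms, together with RPLP0, RPLP1, RPLP2 and RPSA. Pseudogenes were left out. The rule found 84 of the table's 60675 rows. Of these, 77 are core genes, 31 of the small and 46 of the large subunit, and 7 are paralog forms whose names end in L or L1. FAU, RACK1 and RPL36AL also encode ribosomal proteins, fall outside the naming rule and are given apart. RNA was measured in HCC827, an established human lung adenocarcinoma line with an activating EGFR mutation, made to express a hairpin stably: the CBX5 hairpin G1, the CBX5 hairpin G7 or the non-silencing hairpin NS. CBX5 encodes heterochromatin protein HP1 alpha. All cells were grown in DMEM with serum, each group has 3 libraries of poly-A RNA, and the labels do not state whether the libraries of a group come from separate transductions, so p-values measure the spread between these libraries, which may be technical.

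Ribosomal proteins are made in near-equal amounts, carried to the nucleolus by chaperones and importins, and built onto ribosomal RNA there. Their messenger RNAs are among the most abundant of a growing cell and typically begin with a C followed by an unbroken run of C and U, the terminal oligopyrimidine or TOP motif. Through this motif LARP1 and the mTOR pathway control how much of these RNAs is translated, largely without changing how much RNA there is.

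Library totals ran from 12701561 to 22372353 counts. The targeted gene, CBX5, had 141.6, 141.5 and 143 CPM (read counts scaled to library size, with TMM factors) with G1, 204, 204 and 201 CPM with G7, and 369.7, 377 and 361 CPM with NS. The epithelial markers EPCAM, KRT7, KRT8, KRT18, CDH1 and EGFR were high in every library, while NKX2-1, a lung lineage factor, was listed at 0 in all 9. RPL15 and RPS4X, which every cell that makes ribosomes uses, were also listed at 0, so the 0 of NKX2-1 may not measure its RNA. Of 13 markers of leukocytes, endothelium and fibroblasts, 9 reached at most 1 CPM in every library, among them PTPRC, CD3E, LYZ, VWF, COL3A1 and DCN. The other 4 were present: CD14 at 2.31 to 6.72 CPM, PECAM1 at 53.5 to 79.4 CPM, CDH5 at 13.3 to 18.9 CPM and COL1A1 at 12.9 to 15.7 CPM. The summed level of all 13 was 90.1 to 96.1 CPM with G1, 107 to 112 CPM with G7 and 106 to 114 CPM with NS. With G1 against NS, CD14 changed by -1.18, PECAM1 by -0.40 and CDH5 by 0.32 on the log2 scale, all 3 called in the all-gene edgeR fit, and the part of these markers in the results on ribosomal protein genes was not tested. The share of mitochondrially encoded genes ran from 13.4% to 19.8% of a library's counts, with G7 replicate 3 the highest.

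Ribosomal protein genes took 4.14%, 4.46% and 4.01% of the counts in the G1 libraries, 4.65%, 4.60% and 4.12% in the G7 libraries, and 4.60%, 4.26% and 4.58% in the NS libraries. The 3 groups overlapped. Their means were 4.20% ± 0.231 with G1, 4.46% ± 0.292 with G7 and 4.48% ± 0.191 with NS (SD, n = 3 each). With the mitochondrially encoded genes left out of the total, the share was 4.86%, 5.15% and 4.81% in the G1 libraries, 5.43%, 5.39% and 5.14% in the G7 libraries, and 5.42%, 5.18% and 5.42% in the NS libraries. On that total every G1 library lay below every NS library, while G1 and G7 overlapped. These means were 4.94% ± 0.183 with G1, 5.32% ± 0.157 with G7 and 5.34% ± 0.140 with NS (SD, n = 3 each). A share of the counts does not tell fewer ribosomal protein RNAs per cell apart from more of all other RNA.

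Levels were compared between genes as TPM per coding length, that is, counts divided by the length of the coding sequence and scaled to the same total in each library over all genes that have one. This scale raises the genes with the shortest coding sequences, since reads from untranslated ends are divided by the coding length too. Over the 67 core genes with enough counts to test, the mean over all libraries ran from 153 to 6389 TPM with a median of 1377. The highest was RPL39, a small protein at the wall of the peptide exit tunnel, at 5944 ± 649.6 TPM with G1, 6424 ± 813 TPM with G7 and 6799 ± 475 TPM with NS (SD, n = 3 each). RPL41, RPL37 and RPL28 followed at means of 5345, 4738 and 4305 TPM over all libraries. The lowest core genes were RPS3A at 153 TPM and RPL23A at 232 TPM, which have 38 and 91 pseudogenes in the annotation, and reads that map to several places may lower them. Across the 67 core genes, Spearman's rho between level and number of pseudogenes was -0.18, a description over genes that share the same libraries.

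The tested paralog forms stood below the core genes they resemble wherever that core gene was counted. On the same scale, over all libraries, RPL39L had 144 TPM beside 6389 TPM for RPL39, RPS27L 117 TPM beside 1574 TPM for RPS27, RPL22L1 89.5 TPM beside 1205 TPM for RPL22, and RPL7L1 285 TPM beside 670.1 TPM for RPL7. RPL26L1 had 62.5 TPM, while RPL26 was listed at 0. RPL3L, which in mammals replaces RPL3 in striated muscle, held 8, 8 and 4 counts with G1, 20, 7 and 25 counts with G7, and 5, 9 and 5 counts with NS. It was therefore close to the limit of detection in every group. RPL10L, an intronless gene used in the testis, held 1 count in all 9 libraries together.

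Of the 84 genes, 73 had enough counts to be tested and 11 did not. Besides RPL10L, these were 10 core genes: RPL15, RPL17, RPL26, RPL32, RPL35A, RPL36A, RPS28 and RPS4X were listed at 0 in all 9 libraries, RPL5 held 31 counts in all and RPS10 held 3. Every cell that makes ribosomes uses these genes, so a listed 0 is no measure of their RNA. Each of the 10 has another protein-coding gene over its span, against 25 of the 67 tested core genes. Exons shared on the same strand with a coding gene were found for 4 of the 10, namely RPS10 with RPS10-NUDT3, RPL17 with RPL17-C18orf32, RPL36A with RPL36A-HNRNPH2 and RPL26 with AC135178.2, against 5 of the 67. The exons of RPL35A and RPS4X overlapped those of no other gene on either strand. RPL10, a tested gene, had 52.7% of its exonic length over exons of the opposite strand and a mean of 975 CPM over all libraries. The 10 had a median of 15.5 annotated pseudogenes, with a range of 3 to 35, against 8 for the 67, with a range of 0 to 91. The pseudogenes named after members, 1144 rows in all, together held 993 to 1722 counts per library. How the counting treated overlapping or multiply mapped reads is not given in the sources used here, and its part in these zeros was not tested.

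The TOP motif is at the first bases of the transcript, and RefSeq promoter windows on GRCh38.p14 could be matched for 67 of the 84 genes. A start base C followed by at least 4 bases that are each C or T, read on the gene's own strand, was found at an annotated start of 47 of these 67 genes (70.1%), against 1404 of the 27305 genes in the whole RefSeq table (5.14%). By class, 46 of 62 core genes had such a run and 1 of 5 paralog forms, RPL22L1. The windows printed here hold 10 bases before the annotated start and 15 from it on, with the run in capitals where it reaches that length. They are shown for 6 genes called higher with G1, for 2 called lower, and for 2 pairs of core gene and paralog form.
RPL35 (chr9:124861943-124861967, minus strand): cgcctacttcCTCTTTCCCTCggag
RPL24 (chr3:101686704-101686728, minus strand): atgattctctCTTTCTTTTCgccat
RPSA (chr3:39406710-39406734, plus strand): tgccgcctgtCTTTTCCgtgctacc
RPS26 (chr12:56041908-56041932, plus strand): acataacctcgattttcttccgcca
RPL7L1 (chr6:42879606-42879630, plus strand): gtgcggcgccgtagctaggagcgga
RPL26L1 (chr5:172958719-172958743, plus strand): tccaggggtcggcgaacgaaacgcg
RPL3 (chr22:39319609-39319633, minus strand): gccgaccggcctctaccggcgggat
RPL10A (chr6:35468391-35468415, plus strand): aagacatgctagtctcttttccggt
RPL22 (chr1:6199581-6199605, minus strand): cgctcacctcCCTTTCTaactccgc
RPL22L1 (chr3:170870181-170870205, minus strand): ccgtagcttcCTCTCTgctctcgcg
RPS27 (chr1:153990752-153990776, plus strand): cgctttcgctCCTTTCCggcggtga
RPS27L (chr15:63157463-63157487, minus strand): gatgccgagcgcagatcgcttgcag
RPL35, RPL24 and RPSA, whose RNA was higher with G1, start on a run, whereas RPS26, RPL7L1 and RPL26L1, also higher with G1, have none at the annotated base. RPL3 has a run of only 4 bases and RPL10A none at its annotated base. In RPS26 and RPL10A a stretch of C and T stands a few bases after the annotated start. RPL22 and its paralog RPL22L1 both have a run, while RPS27 has one and RPS27L has none. A start annotated a few bases off hides a run, so the absence of one in a window says only that these letters are not there.

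Hairpin G1, which left the least CBX5 RNA, was compared with NS to ask how ribosomal protein RNAs stood where many other genes changed. Of the 73 tested genes, 15 were higher, 6 were lower and 52 were not called. The called share was 28.8% of the members, while 59.1% of all 13264 tested genes were called (30.4% higher and 28.7% lower). Calls here and in the following comparisons are at an adjusted p under 0.05 in the all-gene edgeR quasi-likelihood fit with Benjamini-Hochberg correction, over all tested genes. The members' median log2 fold change was 0.04, with quartiles of -0.04 and 0.11, beside a median of -0.01 and quartiles of -0.34 and 0.26 over all genes. For 52 of the 73 members (71.2%) the whole 95% interval lay within a 1.2-fold change, against 17.9% of all genes. These shares are not matched for abundance, and intervals are narrower at high counts. A mean of at least 64 CPM was reached by 68 of the 73 members and by 3240 of the 13264 tested genes. The libraries of the 2 groups did not overlap for 26 of the 73, against 64.1% of all genes. Among core genes, 6 of 28 of the small subunit were higher and 1 was lower, and 6 of 39 of the large subunit were higher and 5 were lower. Of the 6 tested paralog forms, 3 were higher and 0 were lower.

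**Figure D1:**
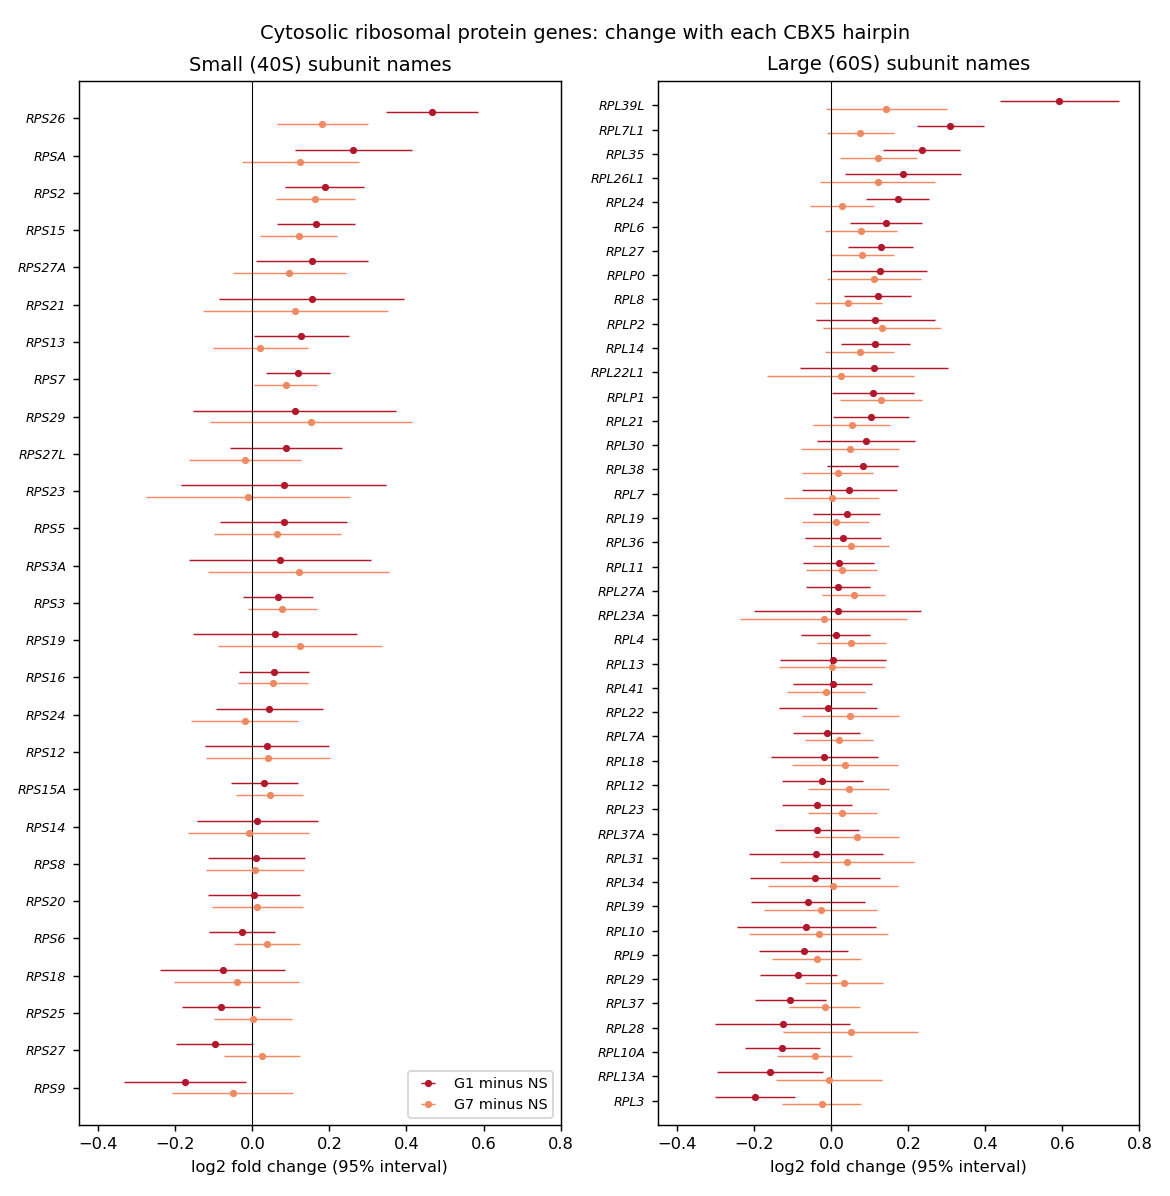
Log2 fold change of tested ribosomal protein genes with hairpin G1 (dark red) or G7 (orange) against NS, by subunit name and in order of the G1 value. Points are estimates and bars their 95% intervals, RPL3L with its 91 counts in all and some genes not reported are left off, and RPL39L, RPS26 and RPL7L1 lie to the right at 0.59, 0.47 and 0.31 with G1 while most genes sit close to 0.

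RPL39L (ENSG00000163923, GRCh38 chromosome 3, 187120948 to 187180908, minus strand), a paralog of the exit tunnel protein RPL39 known mainly from testis, had the highest fold change. RPL39L had 23.3, 24.9 and 25.03 CPM with G1, 17.3, 17.8 and 18.6 CPM with G7 and 16.7, 16.8 and 15.2 CPM with NS. Every G1 library lay above every library of the other groups. The log2 fold change was 0.59 ± 0.074 (SE) with G1 against NS, at adjusted p = 1.56e-06 in the all-gene edgeR quasi-likelihood fit with Benjamini-Hochberg correction. The more abundant RPL39 was not called, at -0.06 and adjusted p = 0.478 by the same corrected edgeR quasi-likelihood value.

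RPS26 (ENSG00000197728, GRCh38 chromosome 12, 56041351 to 56044697, plus strand), a small subunit protein that touches messenger RNA just upstream of the start codon and is one of the Diamond-Blackfan anemia genes, was the core gene with the highest fold change. RPS26 had 145, 145 and 158 CPM with G1, 118, 115 and 134 CPM with G7 and 105, 109.9 and 109 CPM with NS. The 3 groups did not overlap, with G1 highest, G7 between and NS lowest. Against NS, G1 changed it by 0.47 ± 0.056 (SE, log2), at adjusted p = 1.12e-06 in the all-gene edgeR quasi-likelihood fit with Benjamini-Hochberg correction. RPS26 has 30 annotated pseudogenes, so its count is uncertain where reads map to several copies, and adding the pseudogene counts left its call in place. Replicate 3, its highest library with G1 and with G7, also had the highest mitochondrial share of its group, 16.6% and 19.8%, whose part in the result was not tested.

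RPL7L1 (ENSG00000146223, GRCh38 chromosome 6, 42879618 to 42889925, plus strand), whose yeast relative Rlp7 acts in large subunit assembly, was also higher. RPL7L1 had 219, 219 and 214 CPM with G1, 186, 191 and 178 CPM with G7 and 176, 180.0 and 170.4 CPM with NS. Every G1 library lay above all G7 and NS libraries, which overlapped each other. The log2 fold change was 0.31 ± 0.042 (SE) with G1 against NS, at adjusted p = 4.28e-06 in the all-gene edgeR quasi-likelihood fit with Benjamini-Hochberg correction. RPL26L1, a close copy of RPL26, was the third paralog form that rose, by 0.19 on the log2 scale. Its call was lost under DESeq2 (adjusted p = 0.0691) and with upper quartile scaling, where the value was 0.10. It was also lost without NS replicate 3, at 0.13 and an edgeR adjusted p = 0.145, and without NS replicate 2 or any 1 of the G1 replicates.

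The other core genes that rose did so by less. RPSA, a small subunit protein also described as a laminin receptor, had 452, 486 and 425 CPM with G1 against 404, 348 and 385 CPM with NS, a log2 fold change of 0.26 ± 0.072 (SE). RPL35, which lies at the tunnel exit, had 321, 317 and 341 CPM with G1 against 276, 273 and 284 CPM with NS, a change of 0.23 ± 0.048. In both genes the lowest G1 library was above the highest NS library. RPS2, near the entry of the messenger RNA channel, rose by 0.19 on the log2 scale and RPL24, a bridge between the subunits, by 0.17. The adjusted p-values of these 4 genes in the all-gene edgeR quasi-likelihood fit with Benjamini-Hochberg correction were 0.00438 for RPSA, 3.68e-04 for RPL35, 0.00294 for RPS2 and 0.00103 for RPL24. With upper quartile scaling the calls of RPS2 and RPL24 were lost, at 0.10 and 0.09. RPS15, RPL6, RPL27, RPL8, RPS7 and RPL14 were also called higher, by 0.17 at most and 0.11 at least. On the TPM scale, which uses no TMM factors, the group means of these genes lay close together. RPL8 had 2059 TPM with G1 and 2078 TPM with NS, RPL27 1206 and 1212, and RPS7 1258 and 1271. In the same order, RPL14 had 757 and 768, RPL6 749 and 745, and RPS15 404 and 395. RPSA has 74 annotated pseudogenes, and its count is uncertain for that reason.

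Among the 6 genes that were lower with G1, RPL3 (ENSG00000100316, GRCh38 chromosome 22, 39312882 to 39320389, minus strand), which reaches toward the peptidyl transferase centre, had the largest fall. RPL3 had 1540.0, 1633 and 1540.5 CPM with G1, 1830.2, 1825 and 1659 CPM with G7 and 1850.2, 1757 and 1801 CPM with NS. All G1 libraries lay below all G7 and NS libraries. Against NS, G1 changed it by -0.20 ± 0.049 (SE, log2), at adjusted p = 0.00207 in the all-gene edgeR quasi-likelihood fit with Benjamini-Hochberg correction. RPL10A, the protein of the L1 stalk, had 473, 492 and 455 CPM with G1 against 538, 499 and 514 CPM with NS and fell by 0.13 on the log2 scale. RPL37 had a change of -0.11, and RPL13A one of -0.16 with libraries that overlapped between the groups. The calls of RPL10A and RPL37 ended under DESeq2 and with no filter on low counts. The number of members called lower was 1 without G1 replicate 1, 2 without NS replicate 3, and 3 without G1 replicate 3, G7 replicate 2 or NS replicate 1.

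**Figure D2:**
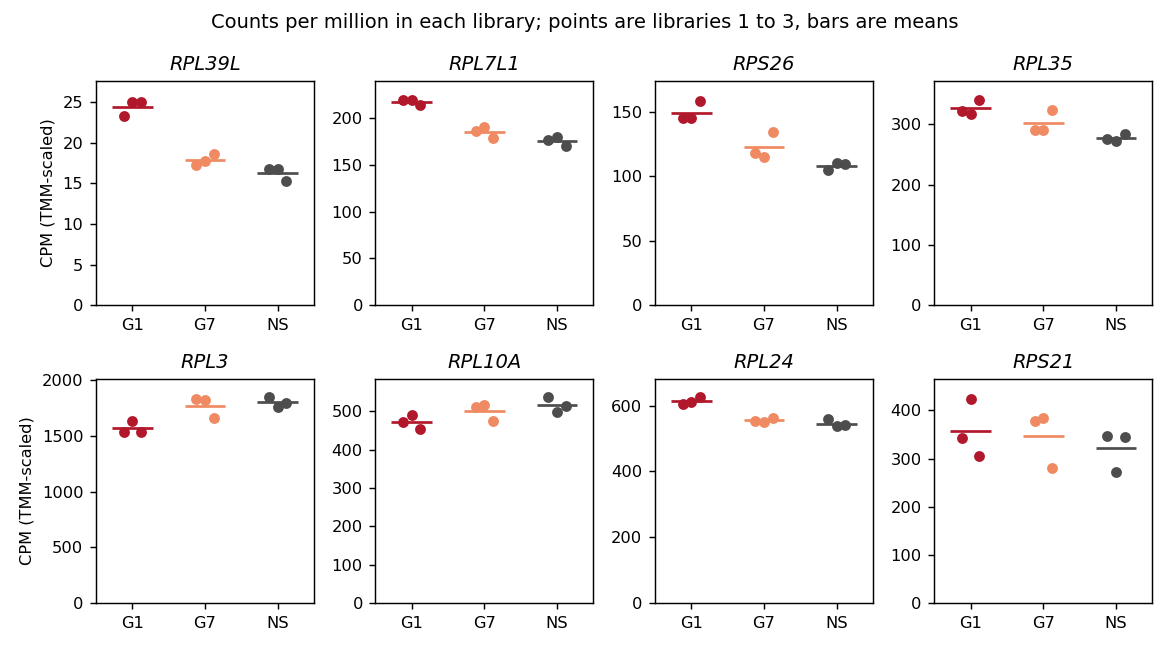
TMM-scaled CPM in each library for 8 ribosomal protein genes, with G1, G7 and NS from left to right, points for libraries and bars for group means, on axes that start at 0. In RPL39L, RPL7L1 and RPS26 the G1 points stand above the rest, in RPL3 they stand below, and in RPS21 the spread within each group is wider than any difference between groups.

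Where the zero point is set matters for changes this small. The TMM factors were 0.967, 0.982 and 0.944 in the G1 libraries and 1.043, 1.011 and 1.050 in the NS libraries, which did not overlap. With upper quartile scaling in place of TMM, 5 members were higher and 16 were lower with G1, and the median over members was -0.05 beside -0.10 over all genes, so the members stayed above the genome-wide median while the split of calls turned round. With no filter on low counts, 26 members were higher and 3 were lower, and DESeq2 called 18 higher and 1 lower. Tested against a 1.2-fold change with glmTreat, 2 members passed, RPL39L and RPS26. Both of these and RPL7L1 and RPL3 kept their direction and their call under every scaling tried.

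The second hairpin, G7, was compared with the same NS libraries, so the comparisons of G1 and G7 against NS share their controls. With G7, 2 of the 73 members were higher, RPS26 and RPS2, and 0 were lower. The called share was 2.74% of the members, beside 22.7% of all genes tested (13.1% higher and 9.64% lower). At an unadjusted p under 0.05 the edgeR test had 8 higher and 0 lower members, and DESeq2 called 2 higher and 0 lower. The median log2 fold change was 0.04 over members and 0.01 over all genes. For 61 of 73 members (83.6%) the 95% interval lay within a 1.2-fold change, against 35.6% of all genes, again without matching for abundance. Libraries did not overlap for 11 of the 73, against 35.3% of all genes.

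RPS26, with the library values given for G1, had a log2 fold change of 0.18 ± 0.057 (SE) with G7 against NS, at adjusted p = 0.0264 in the all-gene edgeR quasi-likelihood fit with Benjamini-Hochberg correction. RPS2 had 1272, 1226 and 1286 CPM with G7 and 1045, 1147 and 1188 CPM with NS. The lowest G7 library was above the highest NS library. RPS2 changed by 0.16 ± 0.049 (SE), at adjusted p = 0.0217 in the same test. Both calls ended with upper quartile scaling, without NS replicate 1 and without G1 replicate 1, that of RPS26 also without NS replicate 3 and without G7 replicate 3, where it stood at 0.11, and that of RPS2 without G7 replicate 1 and with only the G7 and NS groups in the fit. Leaving out G7 replicate 3, the library with 19.8% mitochondrial counts, gave 10 members higher in place of 2, and leaving out NS replicate 1 or G1 replicate 1 gave 0. RPL39L had 0.14 with G7 (adjusted p = 0.188) and RPL7L1 0.08 (adjusted p = 0.213), neither of them called in that edgeR fit. RPL3L had a change of 1.03 on few counts, at adjusted p = 0.073 in that test.

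Compared directly, G1 and G7 differed in 9 of the 73 members: 4 were higher with G1 and 5 were lower, 12.3% of the members beside 44.9% of all genes tested (23.3% higher and 21.6% lower). Libraries did not overlap for 12 of the 73, against 53.6% of all genes. RPL39L was higher with G1 than with G7 by 0.45 ± 0.070 (SE), RPS26 by 0.28 ± 0.055, RPL7L1 by 0.23 ± 0.041 and RPL24 by 0.14 ± 0.039. Their adjusted p-values in the all-gene edgeR quasi-likelihood fit with Benjamini-Hochberg correction were 4.03e-05, 3.69e-04, 1.52e-04 and 0.00599 in that order. RPL3 was lower with G1 by a log2 difference of -0.17, with libraries that did not overlap. RPS27 (-0.12) and RPL3L (-1.16) were called too, with libraries that overlapped, and without G7 replicate 3 both calls ended, at -0.07 and -0.86. The call of RPL3 ended without G1 replicate 1, at -0.14. Members called lower numbered 2 without G1 replicate 1 and 8 without G7 replicate 3. With upper quartile scaling, 3 were higher and 16 were lower with G1 than with G7.

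Members that moved could be set beside the presence of a TOP-like start, a comparison chosen after the values were seen and given with no test. Of 43 tested members with a run at the start, 4 were higher and 1 was lower with G1, with a median log2 fold change of 0.02. Of 14 tested members without one, 7 were higher and 2 were lower, with a median of 0.11. Over all tested genes, 30.4% were higher and 28.7% were lower with G1. The higher genes without a run include RPS26 and the paralog forms RPL7L1 and RPL26L1. In RPS26, and in RPL10A among the lower genes, a stretch of C and T stands a few bases after the annotated start. Tested members without a matched window, among them RPL39L and RPS2, are not in these counts. With G7 the medians were 0.04 for genes with the run and 0.08 for genes without it. In that order, 0 and 1 were called higher with G7, beside 13.1% of all tested genes.

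**Figure D3:**
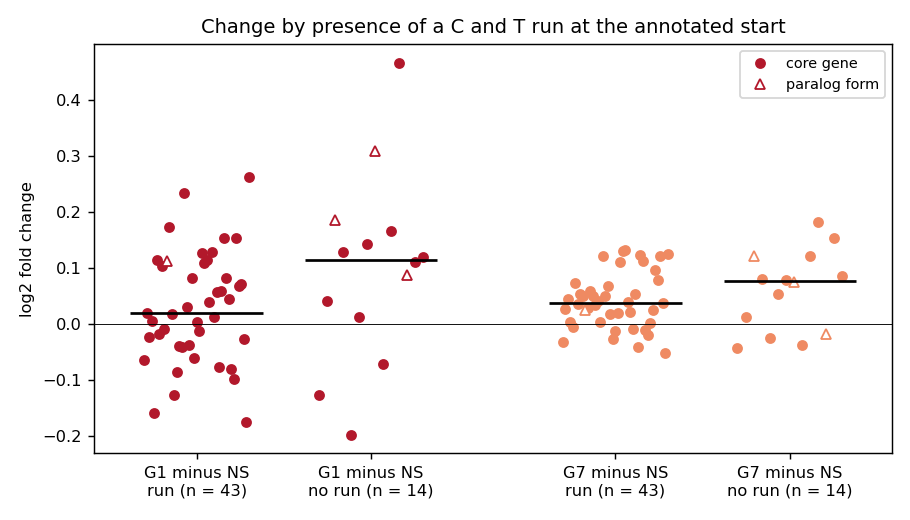
Log2 fold change with G1 (dark red) and G7 (orange) against NS for tested ribosomal protein genes with (43) and without (14) a C and T run at the annotated start; horizontal bars are medians, circles core genes and triangles paralog forms. With G1 the medians are 0.02 with the run and 0.11 without it, and the points of the 2 classes overlap.

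Within groups, much of the spread of the ribosomal protein genes lay along 1 direction, to which the genes contributed unequally. Over the 68 members with a mean of at least 64 CPM, 1 direction held 84.1% of the spread of libraries around their group means (sum of squares of log2(CPM + 0.5)), against 57.2% for the first direction of 3172 other genes above the same limit. Members and other genes were not matched in number or in level above that limit. The median standard deviation within groups was 0.0717 on the log2 scale for members and 0.0559 for the other genes, and 48 of the 68 members lay above that second value. Along this direction 48 members fell and 20 rose, and the 5 genes that fell furthest held 37.6% of the members' sum of squares on it. RPS29, RPS21, RPS23, RPS3A and RPS19 were these 5, and RPL28, RPS24 and RPS26 were at the other end. RPS21 had 342, 424 and 306 CPM with G1, 378, 384 and 280.4 CPM with G7 and 346, 272 and 346 CPM with NS. The low libraries were G1 replicate 3, G7 replicate 3 and NS replicate 2, and the groups overlapped. In each group these were the libraries with the highest mitochondrial share, at 16.6% with G1, 19.8% with G7 and 17.7% with NS, while the others held 13.4% to 15.6%. RPL28 had 1456, 1335 and 1557 CPM with G1, 1507, 1492 and 1915 CPM with G7 and 1422, 1628 and 1696 CPM with NS. RPL28 was high in G7 replicate 3, the library in which RPS21 was lowest of its group. The order of the 3 libraries along the direction matched the order of their mitochondrial share in every group, and the part of that share in the gene-wise results was not tested. None of RPS29, RPS21, RPS23, RPS3A, RPS19 or RPL28 was called in any of the 3 comparisons. Across the 67 core genes, the place of a gene on this direction and its change with G1 had a Spearman's rho of 0.01, given as a description over genes of the same libraries.

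**Figure D4:**
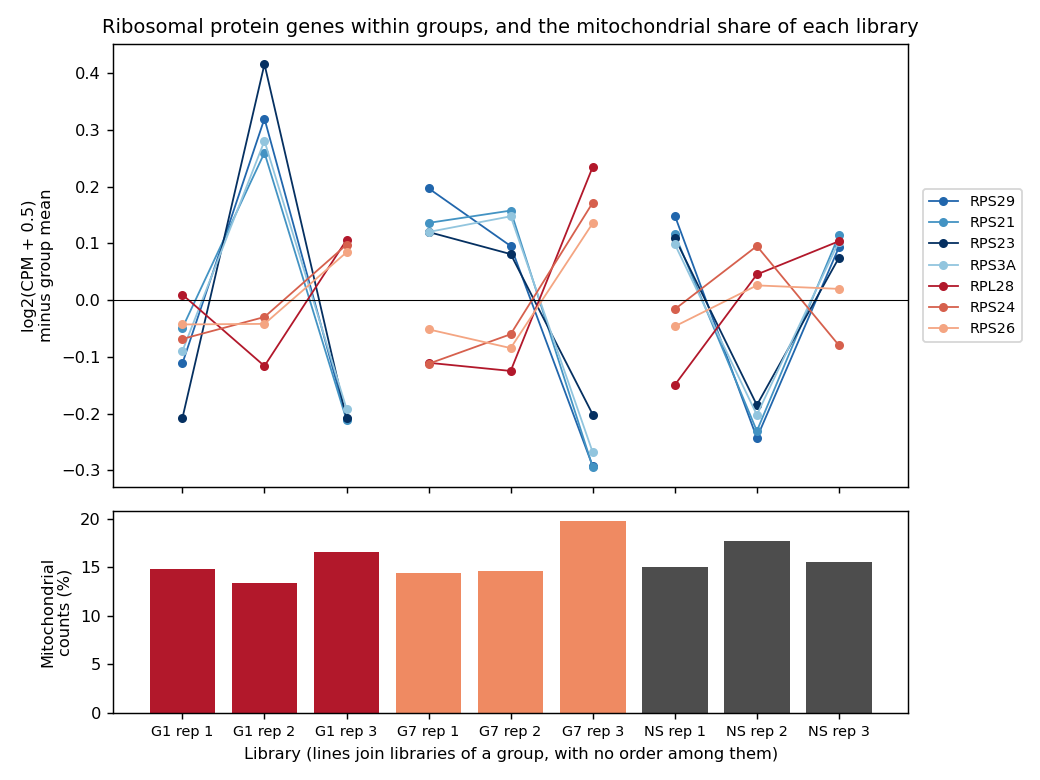
Top, log2(CPM + 0.5) minus the group mean in each library for 7 ribosomal protein genes at the 2 ends of the shared direction (blue and red), with lines that only join libraries of a group; bottom, percent of counts from mitochondrially encoded genes. RPS29, RPS21, RPS23 and RPS3A are low where the mitochondrial share is highest in a group (16.6%, 19.8% and 17.7%), and RPL28 and RPS26 are above their group mean there.

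Functional groups of members were read from the same fit, in which 59.1% of all genes were called with G1 (30.4% higher) and 22.7% with G7 (13.1% higher). Of the 4 proteins of the stalk that recruits translation factors, RPLP0, RPLP1, RPLP2 and RPL12, 0 were called with G1, with a median of 0.11, and 0 with G7, with a median of 0.12. Among 6 tested proteins in or around the exit tunnel, RPL35 alone was higher with G1 and 0 were called with G7. Of 8 tested Diamond-Blackfan anemia genes, 4 were higher with G1, among them RPS26, RPL27 and RPS7, and 1 with G7 (RPS26), which is 50% and 12.5% of the list beside those shares of all genes, while 6 of the 14 listed could not be tested. RPL11, which binds MDM2 as part of a precursor particle of the large subunit, had 0.02 with G1 and 0.03 with G7 and was not called. Outside the naming rule, RPL36AL rose by 0.22 and FAU, which encodes a small subunit protein fused to a ubiquitin-like protein, by 0.16 with G1, whereas RACK1 had 0.03 and was not called. With G7 0 of these 3 were called. Of the paralog pairs with both genes tested, RPL22 and RPL22L1 had -0.01 and 0.11 with G1, and RPS27 and RPS27L had -0.10 and 0.09, none of them called.

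Other RNAs listed as having a TOP start were read from lists of their own, and their annotated starts were not examined here. Of 11 tested translation factors with TOP messages, 2 were higher (NAP1L1 and EEF1B2) and 2 were lower (EIF3F and EEF2) with G1, with a median log2 fold change of -0.04, and 0 were called with G7. The called share with G1 was 36.4%, beside 59.1% of all tested genes, and with G7 22.7% of all genes were called. With upper quartile scaling 5 of these translation factors were lower with G1. Of 8 tested noncoding host genes of small nucleolar RNAs, 6 were lower and 1 was higher with G1, with a median of -0.62, and 3 were lower with G7, with a median of -0.23 (6 lower with no filter on low counts). That is 87.5% of the host list called with G1 and 37.5% with G7. Of all tested genes, 28.7% were lower with G1 and 9.64% with G7. ZFAS1 had 80.7, 88.6 and 74.95 CPM with G1, 123, 126 and 105 CPM with G7 and 149, 141 and 139.8 CPM with NS. SNHG7 had 23.6, 25.7 and 23.4 CPM with G1, 38.8, 34.3 and 36.7 CPM with G7 and 46.5, 40.7 and 51.2 CPM with NS. In both, the 3 groups did not overlap, and G1 was lowest. ZFAS1 changed by -0.81 with G1 and -0.28 with G7, and SNHG7 by -0.93 and -0.33, all called. SNHG12 rose by 0.38 with G1. ZFAS1 lies antisense to ZNFX1, and its count is uncertain because the strand setting of the counting is not given in the sources used here.

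Most of the genes listed here as builders of ribosomes were higher with G1. Of 19 tested ribosome biogenesis factors, 14 were higher and 1 was lower, with a median log2 fold change of 0.29 beside 0.04 for the ribosomal protein genes and -0.01 for all genes. Of all tested genes, 30.4% were called higher and 28.7% lower with G1. NOP56 had 212, 219.8 and 212 CPM with G1, 141, 139 and 141 CPM with G7 and 132, 129.7 and 134 CPM with NS. NOP56, a core protein of box C/D particles that guide methylation of ribosomal RNA, changed by 0.70 with G1, at adjusted p = 4.37e-11 in the all-gene edgeR quasi-likelihood fit with Benjamini-Hochberg correction. BOP1 rose by 0.68 and NCL, nucleolin, by 0.59, while NOB1, which trims the end of the small subunit ribosomal RNA, fell by 0.61 on the log2 scale. With G7, 3 of the 19 were higher (NOLC1, FBL and DKC1) and 0 were lower, with a median of 0.07. That is 15.8% of the list called, beside 22.7% of all tested genes. The chaperones and importins listed for ribosomal proteins, not all of them dedicated to these, had 12 of 16 higher and 0 lower with G1. The median was 0.32, and among the higher genes were GRWD1, whose yeast relative is a chaperone of Rpl3, at 0.61, and the importin IPO5 at 0.55. With G7, 2 were higher (IPO5 and IPO9) and 1 was lower (IPO7), which is 18.75% of that list called, beside the same 22.7%.

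Mitochondrial ribosomal proteins, which form a separate ribosome, were the closest other family. Of 78 listed, 64 were tested, of which 44 were higher and 1 was lower with G1, with a median log2 fold change of 0.31, and 13 were higher and 0 were lower with G7, with a median of 0.10. The called share was 70.3% with G1 and 20.3% with G7, beside 59.1% and 22.7% of all tested genes. Of all tested genes, 30.4% were higher with G1 and 13.1% with G7. In the cytosolic family the counts were 15 and 6 of 73 with G1, and 2 and 0 with G7. The difference between the families was not tested. With upper quartile scaling the mitochondrial family had 35 higher and 5 lower with G1.

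**Figure D5:**
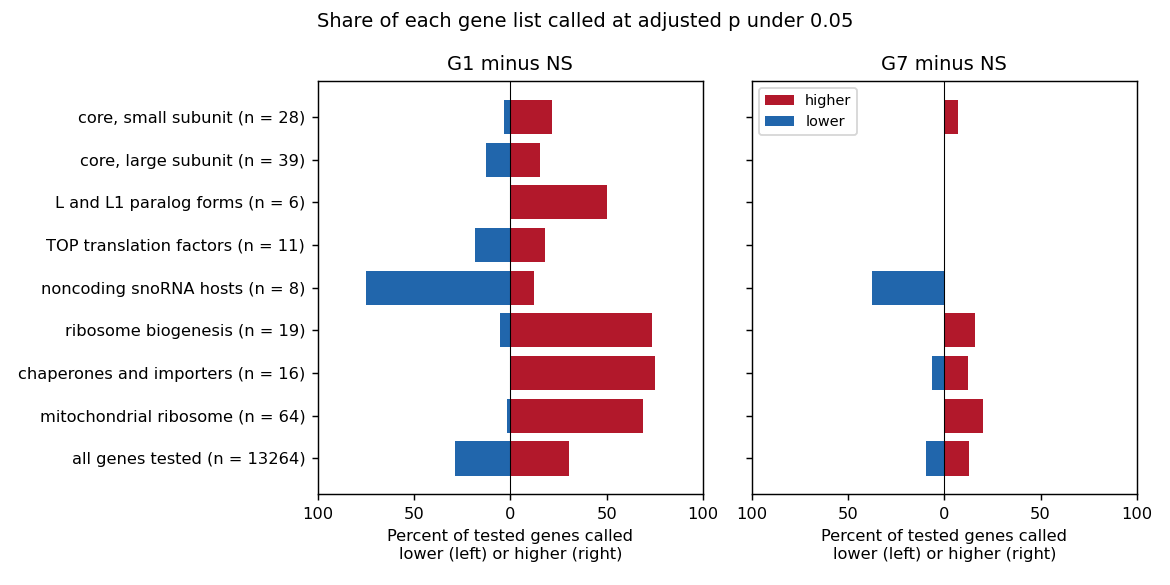
Percent of each gene list called lower (blue, left) or higher (red, right) with G1 against NS and with G7 against NS, with the number of tested genes beside each name. With G1 the core ribosomal protein genes have smaller called shares than all tested genes (59.1%). Called higher are 14 of 19 biogenesis factors, 12 of 16 chaperones and importins and 44 of 64 mitochondrial ribosomal proteins, beside 30.4% of all genes.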

How the data were processed

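Polyadenylated RNA of 9 libraries in 3 groups was sequenced with a strand-specific dUTP protocol, per the labels' protocols. The values are raw counts as the authors deposited them, 1 row per Ensembl gene and not normalized, and TopHat2 2.1.0, HTSeq 0.6.0 and the build hg38 (GRCh38) are named in the submitters' processing notes. Not given in the sources used here are the annotation release, the strand setting and any filters on reads. Symbols and coordinates came from GENCODE 29, which held 57055 of the 60675 row identifiers. The other rows held 0.025% of the counts.

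Counts were fitted with edgeR 4.0.16 in R 4.3.3: filterByExpr (13264 genes), TMM scaling, a quasi-likelihood model with 1 mean per group over all 9 libraries (common dispersion 0.00217) and 2-sided contrasts, with calls where the p adjusted by Benjamini-Hochberg over all genes was under 0.05. The procedure was also run on simulated counts with set changes. At 1.25-fold with G1 against NS it recovered 26 of 45 other genes and 10 of 10 members. Each gene was drawn independently, so the run does not cover the spread that members share within groups. A count of 0 allows up to 3 counts, or 0.134 to 0.236 CPM per library, for counting error alone. Within each group every pair of libraries differed by more than sampling noise, with chi-square per degree of freedom of 1.50 to 24.9, so all were kept.

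Named genes are, per contrast, the 6 largest called rises and 6 largest called falls with a mean of at least 2 CPM and groups that do not overlap, the 4 highest and 4 lowest in TPM, paralog pairs, untested members, and up to 4 genes per other list. Other called members are named too, chosen after their values were seen. Members and lists were chosen with earlier results of these data known. DESeq2 1.42.0, other scalings and filters, glmTreat, a replicate block, thinning and leaving out libraries were alternatives. Some items are not reported here.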

Additional observations from a re-analysis of the deposited data

How the results depend on the processing

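The 24 named changes were recomputed under 20 alternatives, giving 478 values. None reversed, and 390 kept their direction and their side of the threshold. RPL39L and RPS26 with G1 against NS, and RPL39L between G1 and G7, did so under every alternative, and 21 changes were lost under at least 1. RPL3L rests on 91 counts over the 9 libraries, and its changes are the least precise.

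With G1 against NS, upper quartile scaling gave 5 members higher and 16 lower with a median of -0.048, no filter gave 26 and 3, DESeq2 gave 1 lower, and glmTreat against 1.2-fold gave 2 and 0, with 4122 genes called in all. With G7 against NS, members higher numbered 0 with upper quartile scaling, 6 with no filter, 1 with only the 2 groups compared and 0 with glmTreat, which called 297 genes in all. Between G1 and G7, upper quartile scaling gave 16 lower with a median of -0.067, no filter 7 higher, DESeq2 3 lower, only the 2 groups 3 lower, and glmTreat 1 higher and 0 lower, with 2038 genes in all. The causes were not tested. Without mitochondrially encoded genes the members' share was 4.94% with G1, 5.32% with G7 and 5.34% with NS.

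Leaving out 1 library at a time gave 11 to 20 higher and 1 to 8 lower with G1 against NS, 0 to 10 higher with G7 against NS, and 4 to 6 higher and 2 to 8 lower between G1 and G7. The lowest count with G1 (1 lower) came without G1 replicate 1, and the 10 with G7 came without G7 replicate 3, where 1 of the 2 calls remained.

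Deviations from group means correlated at 0.17 and 0.27 between the G1 and G7 libraries numbered 2 and 3, and at -0.09 to 0.07 in the other 7 same-numbered pairs. Not every pair passed 0.1 and no label ties the numbers to a shared origin, so the numbers were not taken to pair the samples. With the replicate number as a block, 25 members in place of 21 were called with G1 against NS, 3 in place of 2 with G7 against NS, and 8 in place of 5 were lower between G1 and G7.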

Other observations

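Genes that control translation of TOP messages were read beside the ribosomal protein genes. Of 9 tested, 5 were higher and 1 was lower with G1 against NS, and 2 were higher and 1 was lower with G7. The called share was 66.7% with G1 and 33.3% with G7, beside 59.1% and 22.7% of all genes tested, and nothing is read from the counts about the list itself. EIF4E had 70.8, 74.6 and 71.3 CPM with G1, 53.01, 56.1 and 52.97 CPM with G7 and 52.97, 45.5 and 43.1 CPM with NS. The G1 libraries lay above all others. EIF4E, the cap-binding factor, changed by 0.62 with G1 on the log2 scale, at adjusted p = 1.37e-07 in the all-gene edgeR quasi-likelihood fit with Benjamini-Hochberg correction. LARP1, which binds the TOP start, rose by 0.21 and MTOR by 0.29 on the log2 scale. Inhibitors of EIF4E went both ways with G1, as EIF4EBP1 fell by 0.34 and EIF4EBP2 rose by 0.36, both called. EIF4EBP2 had 256, 245 and 258 CPM with G1 and 192, 203 and 195 CPM with NS. The less abundant EIF4EBP1 had 29.4, 28.4 and 28.4 CPM with G1 and 35.6, 35.7 and 37.8 CPM with NS.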
